A study of Mus musculus with 91 samples.

Results

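Il7, Csf1, Il34 and Cxcl14 encode 4 secreted factors through which marrow stroma acts on lymphoid and myeloid cells. They were followed in every cell of the study, in CPM, the count of a gene scaled to the same total in each cell. The 4 genes are 4 of the 16580 in the count table, taken by name with earlier results of these data known, and all 4 were counted in some cells. The cells were 91 single bone marrow cells of C57BL/6 mice, each a library of its own made by Smart-seq2, a full-length single-cell method. They were sorted as VCAM1+ and positive for a DNA dye, without CD45, Ter119, CD41 or CD71, the surface markers of blood cells. VCAM1 is an adhesion molecule of marrow stroma. The sort was then split on CD61, the integrin beta 3 chain, into 39 VCAM1+CD61+ cells and 40 VCAM1+CD61- cells, called CD61+ and CD61- from here on, and 9 VCAM1+ cells not split on CD61. In 3 further cells the gate in the title is not the labelled one, so these entered counts over all 91 cells and no comparison of gates.

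The labels do not tie cells to animals. A gate therefore counts as 1 sample, and no test could be run. Each plate held cells of 1 gate, with CD61+ plates of 17 and 22 cells and CD61- plates of 24 and 16 cells, and the effects of plate and of gate cannot be told apart. The depth of a cell lay between 507713 and 6702475 counts (median 2060910). Vcam1 itself was counted in 84 of the 91 cells. Intervals are exact at 95%. Those on ratios cover the counting of reads alone, and those on shares treat the cells of a gate as independent draws, so neither covers the spread between animals. Reads without molecular identifiers are not independent molecules.

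IL-7 is the cytokine that lymphoid progenitors need to survive and divide in the marrow, and it acts through a receptor of IL7R and the common gamma chain IL2RG. CSF1 and IL-34 are unrelated in sequence but bind the same receptor, CSF1R, on monocytes, macrophages and osteoclast precursors. CXCL14 is a chemokine of epithelia and stroma. In marrow, stromal cells rich in CXCL12, many of which also make the adipocyte hormone adiponectin (Adipoq), are known as the main IL-7 source, while alkaline phosphatase (Alpl) marks cells on the way to bone-forming osteoblasts.

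All 4 genes lie on the minus strand of GRCm38 in the GENCODE vM21 annotation. Il7 (ENSMUSG00000040329.14) spans chr3:7569994-7613760 and Csf1 (ENSMUSG00000014599.10) chr3:107741048-107760469. Il34 (ENSMUSG00000031750.15) spans chr8:110741829-110805924 and Cxcl14 (ENSMUSG00000021508.11) chr13:56288643-56296551. Antisense genes overlap Il7 (Gm16685) and Il34 (Gm15894 and Gm15895). The sources used here do not say whether counting used strand, so reads of such a pair may not be told apart.

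RefSeq promoter windows on GRCm38.p6, from 250 bases before the start of the gene to 50 bases after it, matched 2 of the 4 members, Cxcl14 and Csf1. They are shown with that of Cxcl12, the gene whose level Cxcl14 followed most closely among Cxcl12, Adipoq and Alpl. Capitals mark each match to the GC box GGGCGG on either strand. The Cxcl14 window is chr13:56296502-56296801 on the minus strand, the Csf1 window chr3:107760420-107760719 on the minus strand, and the Cxcl12 window chr6:117168285-117168584 on the plus strand.
Cxcl14: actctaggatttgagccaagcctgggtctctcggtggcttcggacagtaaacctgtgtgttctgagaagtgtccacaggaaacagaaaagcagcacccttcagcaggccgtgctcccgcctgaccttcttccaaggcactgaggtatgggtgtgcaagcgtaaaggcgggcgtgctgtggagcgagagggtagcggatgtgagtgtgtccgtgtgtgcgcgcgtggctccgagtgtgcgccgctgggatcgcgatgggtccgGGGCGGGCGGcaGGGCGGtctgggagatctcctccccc
Csf1: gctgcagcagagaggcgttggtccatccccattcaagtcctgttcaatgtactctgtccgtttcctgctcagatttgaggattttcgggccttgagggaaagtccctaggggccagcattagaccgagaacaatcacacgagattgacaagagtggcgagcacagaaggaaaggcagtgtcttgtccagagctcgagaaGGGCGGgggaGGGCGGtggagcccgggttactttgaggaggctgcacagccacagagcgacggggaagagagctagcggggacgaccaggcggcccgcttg
Cxcl12: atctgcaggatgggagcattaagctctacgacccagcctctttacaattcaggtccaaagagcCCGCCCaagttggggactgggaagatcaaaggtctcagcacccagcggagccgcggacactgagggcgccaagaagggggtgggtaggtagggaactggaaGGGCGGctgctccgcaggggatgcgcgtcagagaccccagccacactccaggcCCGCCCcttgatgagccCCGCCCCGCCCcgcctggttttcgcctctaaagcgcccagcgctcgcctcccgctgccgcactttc
The Cxcl14 window holds 3 matches, 2 of which share bases, all of them after the start of the gene. The Csf1 window holds 2 matches, both before it, and the Cxcl12 window 5, the last 2 of which share a base. A GC box is found in 35.7% of the 32851 promoter windows of this length. None of the 3 windows holds the letters TATAAA (in 13.6% of all windows), CCAAT (37.4%), TTNNGCAA (10.8%) or TGTGGT (16.8%), or the EBF motif (0.904%), each searched on both strands. These matches describe letters and say nothing of binding.

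Csf1 was the most widely counted member. Il34 had a count in the fewest cells, while at 10 CPM and after thinning Il7 was found in the fewest. At least 1 count of Csf1 was found in 84 of the 91 cells (92.3%, interval 84.8 to 96.9%). Cxcl14 had a count in 70 cells (76.9%, 66.9 to 85.1%), Il7 in 57 (62.6%, 51.9 to 72.6%) and Il34 in 51 (56.0%, 45.2 to 66.4%). Many Il7 cells held very little: 11 of the 57 had 1 to 3 counts. At 10 CPM or more, the rule used for the cell counts below unless a count is named, the numbers were 78 cells for Csf1, 66 for Cxcl14, 46 for Il34 and 41 for Il7. Pooled over the 91 cells, levels did not follow depth, with a Spearman rho between total counts and CPM of -0.01 for Il7 and Il34, 0.03 for Csf1 and -0.09 for Cxcl14. Within CD61+ and CD61- cells it was -0.44 and 0.36 for Il34, -0.16 and 0.26 for Il7, 0.16 and 0.07 for Csf1, and -0.07 and 0.08 for Cxcl14. On CD61- plates 1 and 2 it was -0.32 and 0.60 for Cxcl14. After every cell was thinned to 500000 counts, 83 cells still had Csf1, 68 Cxcl14, 50 Il34 and 49 Il7.

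The levels were spread widely among the cells. Il7 ran from 0 to 779.5 CPM, with a median of 2.03. Csf1 ran from 0 to 5024 CPM around a median of 354. Il34 ran from 0 to 2075 CPM around a median of 64.9, and Cxcl14 from 0 to 8021 CPM around a median of 917. Among cells with a count, the medians were 98.5 CPM for Il7, 407 for Csf1, 397 for Il34 and 1410 for Cxcl14. As the plot of levels by plate shows, Il7, Il34 and Cxcl14 were mostly either under 10 or above 50 CPM in a cell, while most cells had more than 50 CPM of Csf1.

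**Figure D1:**
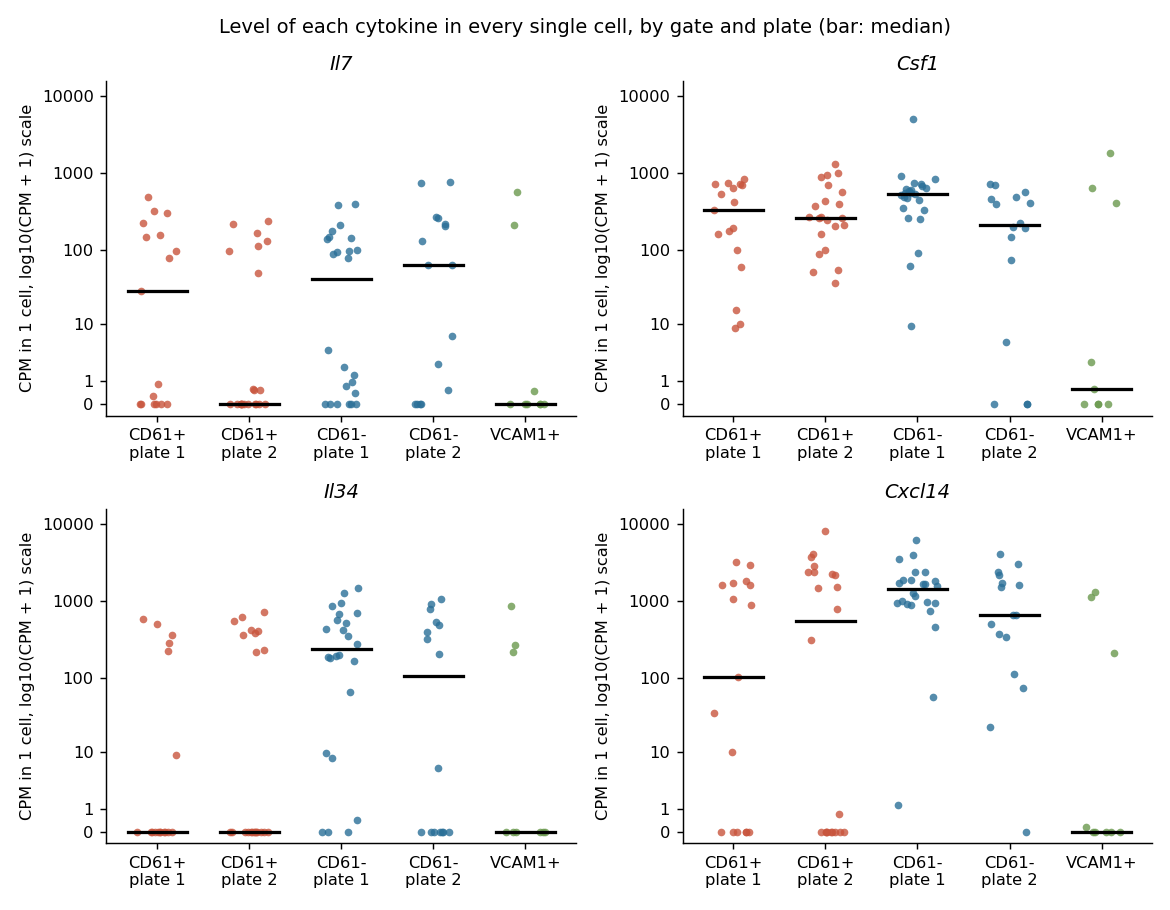
CPM of Il7, Csf1, Il34 and Cxcl14 in each single cell (points, on a log10(CPM + 1) axis) for the CD61+ and CD61- gates by plate and for the VCAM1+ gate, with the median as a bar. The CD61+ median of Il34 is 0 on both plates, while Csf1 was counted in all 39 CD61+ cells.

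Il7, Il34 and Cxcl14 sat almost wholly in the cells rich in Cxcl12, and Csf1 did not. Cells were divided at 1000 CPM of Cxcl12, which left 64 cells at or above it and 27 below. The nearest values to this threshold were 597 and 1101 CPM, 4 cells lay within 2-fold of it, and the division is a range of a level, not a cell type. Above it, 62 of 64 cells had Cxcl14, 61 had Csf1, 45 had Il34 and 40 had Il7. Below it, Cxcl14 was found in 4 of 27 cells, Il34 in 1 and Il7 in 1, but Csf1 in 17.

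The summed levels gave the same order. Il7 was 121 CPM over the cells rich in Cxcl12 against 6.72 CPM over the others, and 99.2% of the counts behind the lower value came from 1 cell. Il34 was 412 against 19.8 CPM, and again 1 cell held 98.3% of the counts of the lower group. Cxcl14 was 1719 against 21.2 CPM. Csf1, at 555 against 180 CPM, was the only member of the 4 with more than 100 CPM in the cells poor in Cxcl12.

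**Figure D2:**
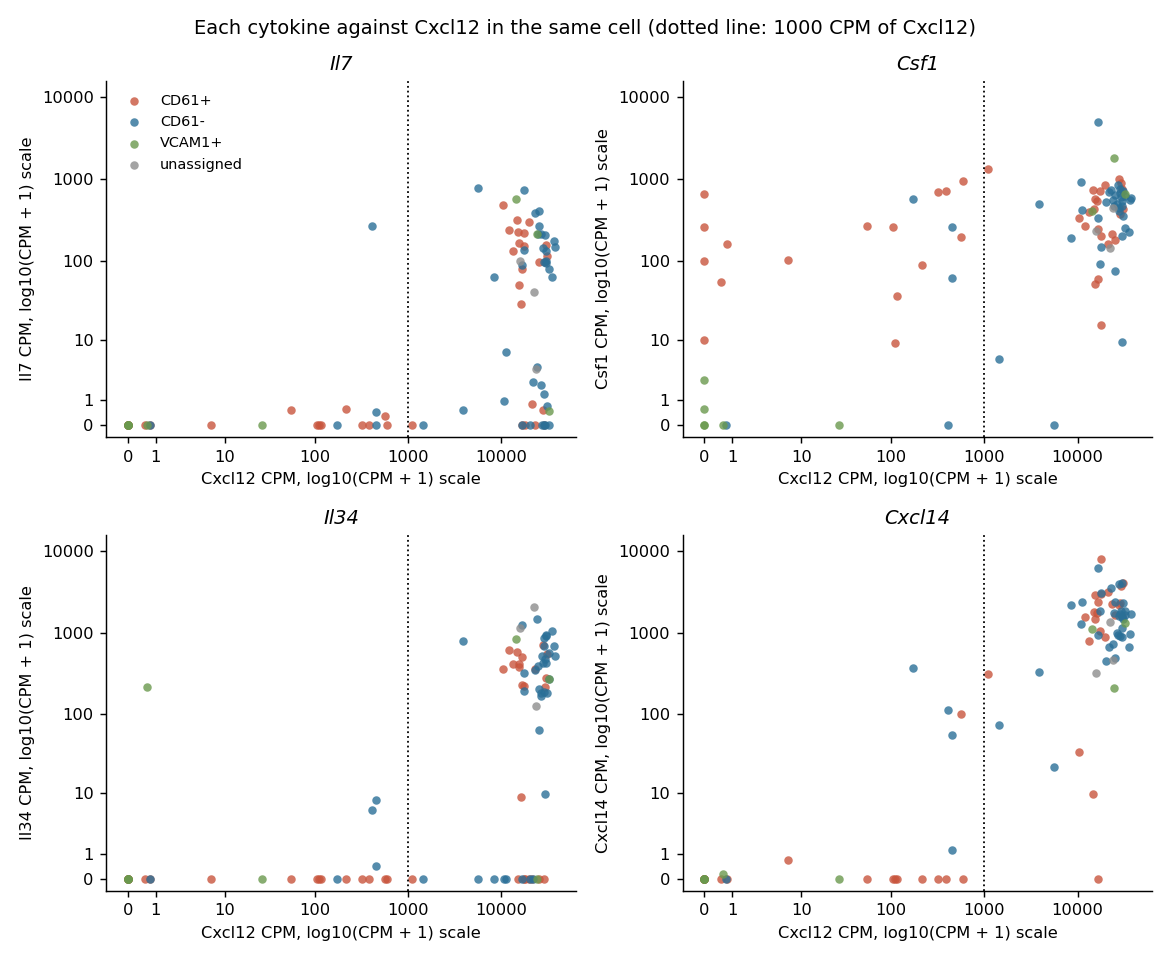
CPM of each member against CPM of Cxcl12 in the same cell, both on log10(CPM + 1) axes, for 91 cells coloured by gate, with a dotted line at 1000 CPM of Cxcl12. Left of the line Il7 and Il34 each reach 10 CPM in 1 cell, whereas Csf1 does so in 17 of 27 cells.

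Within the 64 cells rich in Cxcl12, the members differed in level. Compared per kilobase of exon in the annotation, the median was 848 CPM per kb for Cxcl14, 142 for Il34, 84.2 for Csf1 and 16.2 for Il7, beside 2811 for Cxcl12 itself. The lowest, median and highest values in CPM were 0, 92.0 and 779.5 for Il7. They were 0, 445 and 5024 for Csf1, 0, 279 and 2075 for Il34, and 0, 1549 and 8021 for Cxcl14. Even among these cells, then, each gene was at 0 in some.

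Some of the exceptions are named here, after their values were seen. CD61- cell 25 had only 411 CPM of Cxcl12 but 266 CPM of Il7, and it also had 711 CPM of Adipoq. VCAM1+ cell 2 had 219.5 CPM of Il34 with 0.6 CPM of Cxcl12, 16619 CPM of the fibroblast gene Dcn and no count of Il7, Csf1, Adipoq or Alpl. Its VCAM1 stain was low, at an intensity of 94. In the other direction, CD61+ cells 25 and 28 were rich in Cxcl12 and had 0 and 9.78 CPM of Cxcl14. CD61- cell 26 had the highest Il7 of all cells, 779.5 CPM, with no count of Csf1 or Il34 and 22.1 CPM of Cxcl14. CD61- cells 25 and 26 were poor libraries by their deposited number of genes, 2007 and 2084, beside a median of 4402 over all cells. The part of this in their values was not tested.

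Cxcl14 had the highest rank correlation with Cxcl12 over all cells and in CD61+ cells, and Il34 in CD61- cells. Over the 91 cells the Spearman rho with Cxcl12 was 0.72 for Cxcl14, 0.61 for Il34, 0.46 for Csf1 and 0.45 for Il7. These values describe cells that share plates and fall into 2 separate ranges of Cxcl12, and are given without a p. Within the 64 cells rich in Cxcl12 they were 0.25, 0.29, 0.20 and -0.10 in the same order. The pooled values were thus lower inside the upper range, but differed between the gates there. In CD61+ cells of that range (23) the rho was 0.59 for Cxcl14, -0.14 for Il34, 0.04 for Csf1 and -0.31 for Il7. In CD61- cells of that range (35) it was 0.14, 0.51, 0.15 and 0.05. Over whole gates, the relation of Cxcl14 was the closer in CD61+ cells and that of Il34 in CD61- cells. In CD61+ cells alone the rho of Cxcl14 and Cxcl12 was 0.85 (39 cells) and in CD61- cells 0.41 (40 cells). By plate it was 0.76 and 0.88 in CD61+ cells, and 0.23 and 0.63 in CD61- cells. The rho of Il34 and Cxcl12 was 0.50 in CD61+ cells (0.24 and 0.63 by plate) and 0.63 in CD61- cells (0.50 and 0.70 by plate).

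Adipoq and Alpl divided the cells rich in Cxcl12 further, and pooled over the gates Il34 differed most along that division. These ranges were mixed with gate. Cells with Alpl, with or without Adipoq, were 14 CD61+ and 9 CD61- cells, and those with Adipoq only 9 and 24. With both genes cut at 100 CPM, 38 of the 64 cells had Adipoq only, 13 had Adipoq and Alpl, 10 had Alpl only and 3 had neither. The values nearest to the threshold over all cells were 22.3 and 145 CPM for Adipoq, and 88.8 and 128 CPM for Alpl. Il34 was found in 32 of the 38 cells with Adipoq only, 8 of the 13 with both and 3 of the 10 with Alpl only. Its lowest, median and highest levels were 0, 427 and 2075 CPM with Adipoq only, 0, 217.5 and 943 with both, and 0, 0 and 359 with Alpl only.

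Cxcl14 did not share this order. It was found in 36 of 38, 13 of 13 and 10 of 10 cells of the same ranges, and its medians were 1134, 1729 and 2216 CPM. Its lowest and highest levels were 0 and 4128 CPM with Adipoq only, and 314 and 8021 CPM with Alpl only, so the ranges overlap widely. CD61+ cell 15, which held the highest Cxcl14 of all, 8021 CPM, had 1423 CPM of Alpl and no count of Adipoq or Il34.

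Il7 was present across the ranges. It was found in 25 of the 38 cells with Adipoq only, 10 of the 13 with both and 5 of the 10 with Alpl only, at medians of 97.7, 96.6 and 32.0 CPM. The 3 cells with neither Adipoq nor Alpl had at most 3.81 CPM of Il7. Csf1 was found in 35 of 38, 13 of 13, 10 of 10 and 3 of 3 cells, with medians of 460, 536, 208 and 851 CPM. One of those last 3, CD61- cell 9, had the highest Csf1 of all cells, 5024 CPM, together with 6210 CPM of Cxcl14 and no count of Il7 or Il34. Its deposited number of genes was only 1244, beside a median of 4402 over all cells. The part of this in its CPM values was not tested.

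**Figure D3:**
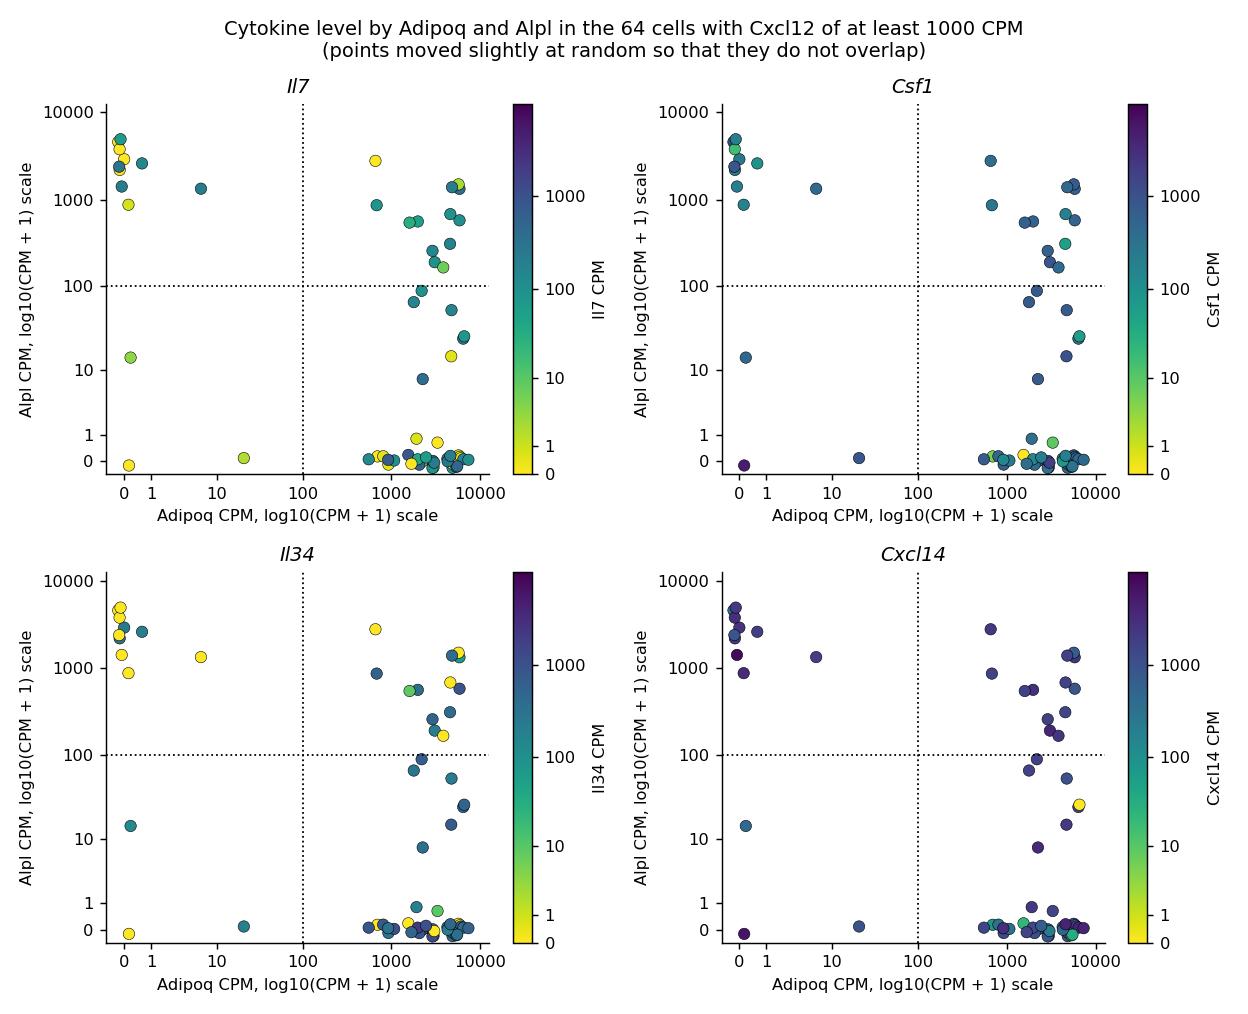
The 64 cells with Cxcl12 of at least 1000 CPM placed by Adipoq and Alpl CPM (log10(CPM + 1) axes, dotted lines at 100 CPM, points moved slightly at random) and coloured by the CPM of each member. Il34 is found in 32 of 38 cells at the lower right, with Adipoq only, and in 3 of 10 at the upper left, with Alpl only, while Cxcl14 is found in 36 of 38 and 10 of 10.

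Over all 91 cells, rank correlations with Adipoq and Alpl were as follows. Il34 had a rho of 0.60 with Adipoq and -0.31 with Alpl. Il7 had 0.57 with Adipoq and -0.07 with Alpl. Csf1 had 0.33 and 0.07, and Cxcl14 had 0.42 and 0.15. Within the 64 cells rich in Cxcl12 Cxcl14 had -0.14 with Adipoq and 0.35 with Alpl, while Il34 had 0.30 and -0.39. By gate in that range, Il34 had 0.69 with Adipoq and -0.75 with Alpl in CD61+ cells (23), but 0.03 and -0.18 in CD61- cells (35). Cxcl14 there had -0.38 and 0.36 in CD61+ cells, and 0.02 and 0.29 in CD61- cells. For Il34 and Il7 the relation to Adipoq was mostly seen in the CD61+ gate, which holds cells with and without Adipoq. The rho of Il34 and Adipoq was 0.78 in CD61+ cells (0.85 and 0.80 by plate) and 0.23 in CD61- cells (0.17 and 0.20 by plate). For Il7 it was 0.70 and 0.22.

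Among the 27 cells poor in Cxcl12, Csf1 was found mostly in cells with genes of the bone lineage. Of 13 such cells with Alpl and without Adipoq, 11 had Csf1, none had Il7 or Il34 at 10 CPM, and 2 had Cxcl14. The lowest, median and highest Csf1 in these 13 cells were 0, 261.5 and 949 CPM. Of the 12 cells with neither Adipoq nor Alpl, 5 had Csf1, 1 had Il34 and none had Il7, for which no count at all was found (upper bound of the share 26.5%). The 2 cells with Adipoq had 0 and 60.7 CPM of Csf1. The latter, CD61- cell 4, also had 1256 CPM of the blood cell gene Laptm5.

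In most cells the members came together rather than singly. All 4 reached 10 CPM in 30 cells, every one of them rich in Cxcl12. Another 13 cells had Csf1, Il34 and Cxcl14 without Il7, and 12 had Csf1 and Cxcl14 alone. In 7 cells Il7 was found with Csf1 and Cxcl14 but without Il34, in 2 with Csf1 and Il34 but without Cxcl14, and in 2 with Cxcl14 alone. Cxcl14 alone was found in 2 cells and Il34 alone in 1.

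Csf1 without the other members was found in 14 cells, and none of those 14 was rich in Cxcl12. They were 13 CD61+ cells and 1 CD61- cell. Their Csf1 ran from 36.4 to 949 CPM with a median of 261 CPM. In 13 of the 14 Spp1, which encodes the bone matrix protein osteopontin, was above 1000 CPM, with a median over the 14 of 141016 CPM. Alpl reached 100 CPM in 9 of them and Adipoq in none.

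**Figure D4:**
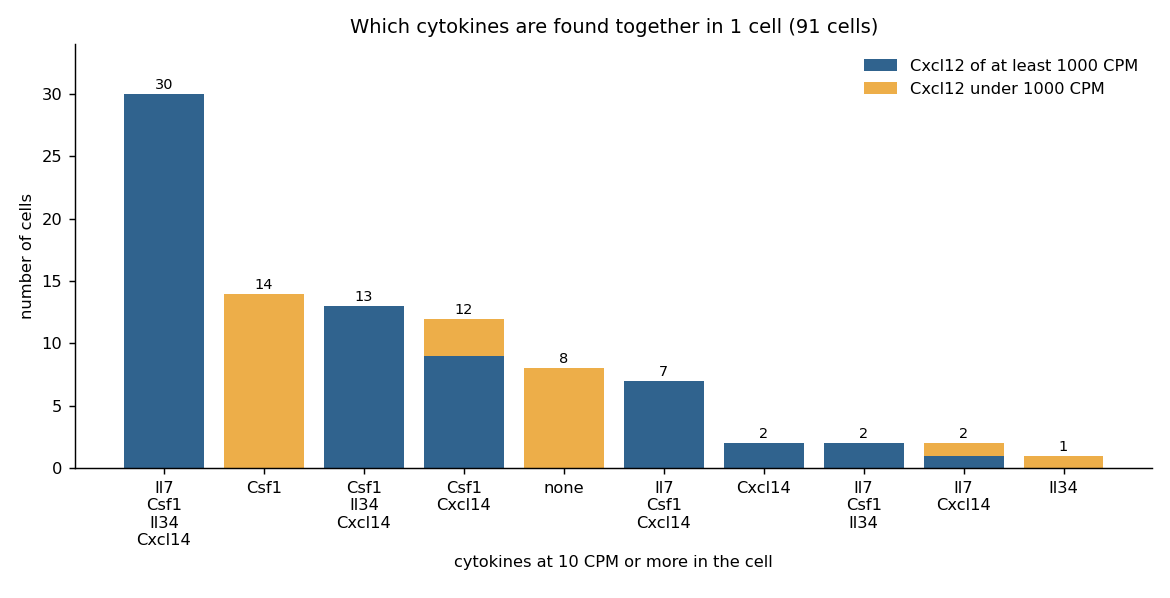
Number of cells (of 91) for each combination of members at 10 CPM or more, with bars divided by the Cxcl12 range of the cells. The 30 cells with all 4 members are all in the upper Cxcl12 range, and the 14 cells with Csf1 alone are all in the lower one.

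No member reached 10 CPM in 8 cells, all poor in Cxcl12. Of these, 3 had counts of the endothelial cadherin gene Cdh5 (CD61+ cell 29, CD61- cell 38 and VCAM1+ cell 4, with 31.2 to 277 CPM), and VCAM1+ cell 1 had 1868 CPM of the blood cell gene Laptm5. VCAM1+ cells 6 and 9 had 1619 and 8161 CPM of Dcn, and cell 6 had a deposited number of only 1185 genes (median over all cells 4402). CD61+ cell 36 and VCAM1+ cell 5 had both Alpl, at 2466 and 170 CPM, and Spp1, at 7647 and 3349 CPM. Outside these 8, CD61+ cell 33 had 130 CPM of Cdh5 with 196 CPM of Csf1 and 101 CPM of Cxcl14. Likewise, CD61+ cell 35 had 86.0 CPM of Laptm5 with 651 CPM of Csf1, so such counts also occurred in cells with members. In 5 of the 9 VCAM1+ cells no member was found, against 2 of 39 CD61+ and 1 of 40 CD61- cells. The deposited VCAM1 stain was low in VCAM1+ cells 1, 4, 5 and 9, at 50, 29, -89 and 21, and was 646 in cell 6. It was also low in VCAM1+ cell 3, at 158, where all 4 members reached 10 CPM, and in cell 2, at 94, where Il34 did. The lowest VCAM1 stain was 440 in CD61+ cells and 352 in CD61- cells. The part of this stain in the difference between gates was not tested.

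The pairs can be read as shares of each gene's cells. Il7 and Il34 were found together in 32 cells, which are 78.0% of the Il7 cells and 69.6% of the Il34 cells. Il7 and Cxcl14 shared 39 cells, 95.1% of the Il7 cells and 59.1% of the Cxcl14 cells. The 2 ligands of CSF1R shared 45 cells, 97.8% of the Il34 cells and 57.7% of the Csf1 cells. Inside the upper Cxcl12 range all 45 Il34 cells had Csf1. Pooled over those 64 cells the amounts had little relation in rank, however. The rho was 0.002 for Csf1 and Il34, 0.15 for Il7 and Il34, -0.08 for Il7 and Cxcl14, and -0.12 for Il34 and Cxcl14. By gate in that range, Il7 and Cxcl14 had -0.40 in CD61+ cells (23) and 0.17 in CD61- cells (35). Il34 and Cxcl14 had -0.28 and -0.05, Il7 and Il34 0.21 and 0.15, and Csf1 and Il34 0.10 and 0.06.

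Where both CSF1R ligands were found, Il34 was mostly the higher per kilobase of exon. Of the 45 cells with both, 38 had more Il34 per kb than Csf1 and 7 had less. The ratio of Il34 to Csf1 per kb ran from 0.274 to 38.8 with a median of 2.89. By range, Il34 was the higher in 29 of 32 cells with Adipoq only, 6 of 8 with Adipoq and Alpl, and 3 of 3 with Alpl only. The exon lengths are the union of all annotated transcripts, so the ratio depends on which transcripts the cells use.

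Between the gates, Il34 and Il7 were lower in CD61+ cells on both plates, and Csf1 and Cxcl14 overlapped between plates. For scale, of 14063 genes tested 17.3% had a summed CPM at least 2-fold lower in CD61+ than in CD61- cells, and 19.4% at least 2-fold higher. Both CD61+ plates lay below both CD61- plates for 17.8% of genes, and above them for 20.0%. Il7 and Il34 were at least 2-fold lower in the sums and lower on both plates, and Csf1 and Cxcl14 were neither.

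Il34 was counted in 15 of 39 CD61+ cells (38.5%, 23.4 to 55.4%) and 30 of 40 CD61- cells (75.0%, 58.8 to 87.3%), and in 15 and 29 after thinning. The lowest, median and highest levels were 0, 0 and 720 CPM in CD61+ cells, and 0, 202 and 1491 CPM in CD61- cells. By plate the summed CPM was 63.4 and 148 in CD61+ cells, and 447 and 349 in CD61- cells, so the plates do not overlap although the cells do. Over the gates it was 105 against 405 CPM, 3.86-fold lower in CD61+ cells (interval 3.77 to 3.96). The ratio of CD61+ to CD61- was 0.259. It was 0.423 as a ratio of mean CPM, which weights each cell alike, and 0.156 without CD61+ plate 2.

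Il7 was counted in 21 CD61+ cells (53.8%, 37.2 to 69.9%) and 30 CD61- cells (75.0%, 58.8 to 87.3%), and in 17 and 27 after thinning. At 10 CPM or more it was found in 16 and 21 cells. The lowest, median and highest levels were 0, 0.51 and 488 CPM in CD61+ cells, and 0, 63.1 and 779.5 CPM in CD61- cells. Summed CPM by plate was 74.1 and 38.5 in CD61+ cells, and 97.4 and 139 in CD61- cells. Over the gates, 56.6 against 115 CPM made Il7 2.03-fold lower in CD61+ cells (1.96 to 2.11), a ratio of 0.492. The difference was under 2-fold by mean CPM (ratio 0.611), after thinning (0.627), without cells with Cdh5 or Laptm5 (0.546), without CD61+ plate 2 (0.644) and without CD61- plate 2 (0.582).

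Csf1 was counted in all 39 CD61+ cells (lower bound 91.0%) and in 37 of 40 CD61- cells (92.5%, 79.6 to 98.4%). Its lowest, median and highest levels were 8.86, 266 and 1318 CPM in CD61+ cells, and 0, 471 and 5024 CPM in CD61- cells. Summed CPM was 378 and 447 on the CD61+ plates, and 618 and 338 on the CD61- plates. The sums over the gates, 412 and 499 CPM, were 1.21-fold apart (1.19 to 1.23). The order of the gates turned when CD61- plate 1 was left out, with a ratio of 1.22 in place of 0.826. Without 1 cell at a time it went up to 0.980.

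Cxcl14 was counted in 24 CD61+ cells (61.5%, 44.6 to 76.6%) and in 39 of 40 CD61- cells (97.5%, 86.8 to 99.9%). The lowest, median and highest levels were 0, 314 and 8021 CPM in CD61+ cells, and 0, 1222 and 6210 CPM in CD61- cells. Summed CPM by plate was 842 and 1424 in CD61+ cells, and 1550 and 1413 in CD61- cells, which overlap. Over the gates it was 1128 against 1491 CPM, 1.32-fold lower in CD61+ cells (1.31 to 1.33). The gates thus differed more in how many cells had Cxcl14 than in the sum.

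The gates also held different cells. Of 39 CD61+ cells 23 were rich in Cxcl12, and of 40 CD61- cells 35. The osteolineage list (16 genes, 15 tested) had 8 genes at least 2-fold higher in CD61+ cells and 12 above on both plates. The shares over all genes were 19.4% and 20.0%. The median of the summed level of the list was 13036 CPM in CD61+ cells and 6469 CPM in CD61- cells. In the list of CXCL12-abundant reticular (CAR) and niche genes, 7 of 14 were at least 2-fold lower and 11 were below on both plates, with medians of its summed level of 22336 and 37479 CPM. Over all genes, 17.3% were at least 2-fold lower and 17.8% below on both plates. The fibroblast and matrix list had 8 of 10 tested genes at least 2-fold higher in CD61+ cells and 1, Mgp, at least 2-fold lower. Some of the higher ones reached 10 CPM in only 1 or 2 CD61+ cells. How far the different cells of the gates account for the gate differences was not tested beyond the values within the Cxcl12 range given next. Of 11 macrophage genes, whose RNA could bring in Csf1r, 7 were measured. Csf1r was counted in 9 cells (summed 0.38 CPM in CD61+ and 0.33 in CD61- cells), Lyz2 was counted in 1 cell and Laptm5 in 3.

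Among only the cells rich in Cxcl12, the gates stood closer for Il7, Csf1 and Il34, and the order turned for Cxcl14. Il7 was 113 CPM over 23 CD61+ cells and 123 CPM over 35 CD61- cells, a ratio of 0.920 (0.888 to 0.954). Csf1 was 526 and 533 CPM, a ratio of 0.987 (0.971 to 1.00). Cxcl14 was 2244 and 1657 CPM, a ratio of 1.35 (1.34 to 1.37), so its order was the reverse of that over all cells. The directions for these 3 were not stable to the libraries. Without CD61+ plate 2 the ratio of Il7 was 1.17 and that of Cxcl14 fell below 1 (a log2 ratio of -0.036), without CD61- plate 2 that of Il7 was 1.07, and without CD61- plate 1 or CD61+ plate 1 that of Csf1 was 1.49 or 1.16. Leaving out CD61- cell 9 alone gave 1.18 for Csf1. The range for Il7 over single cells left out was 0.831 to 1.00.

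Il34 remained lower in CD61+ cells within this range, at 209.5 against 454 CPM, a ratio of 0.461 (0.450 to 0.473). It was 0.628 by mean CPM, 0.271 without CD61+ plate 2 and between 0.432 and 0.671 without each of the other 3 plates. It was found in 14 of 23 CD61+ cells and 26 of 35 CD61- cells. Alpl was itself 2.06-fold higher in these CD61+ cells, at 1116 against 542 CPM. Among cells that also had Alpl the ratio of Il34 was 0.323 (14 against 9 cells), and among cells with Adipoq only it was 0.773 (9 against 24 cells).

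The cells with Alpl differed between plates. On CD61+ plate 1, none of 6 cells rich in both Cxcl12 and Alpl reached 10 CPM of Il34 (upper bound of the share 45.9%), and on CD61+ plate 2 5 of 8 did. On CD61- plate 1 it was 5 of 5 cells, and on CD61- plate 2 1 of 4. In contrast, all 9 CD61+ cells with Adipoq only had Il34, at 225 to 720 CPM, and so did 19 of the 24 such CD61- cells.

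Of the 9 VCAM1+ cells, 3 were rich in Cxcl12, and these 3 held nearly all of the gate's counts of Il7, Csf1 and Cxcl14, while VCAM1+ cell 2, named above, held much of its Il34. Il7 was counted in 3 of the 9 cells, Csf1 in 5, Il34 in 3 and Cxcl14 in 4. The lowest, median and highest Csf1 levels were 0, 0.57 and 1823 CPM, and those of Cxcl14 0, 0 and 1321 CPM.

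The surface stain of the same cells gave a measure apart from RNA. CD200, a surface glycoprotein stained but not named in these gates, ran against Il34 in the CD61+ gate. The 14 CD61+ cells with Il34 had a CD200 intensity of 58 to 2979 with a median of 348.5, in linear fluorescence units. The 25 CD61+ cells under 10 CPM of Il34 had 463 to 7834, with a median of 3533. The cells without Il34 were mostly higher in CD200, and the ranges overlap. In CD61- cells the medians were 337 (26 cells, 20 to 998) and 351.5 (14 cells, 89 to 3456). CD61- cells 29, 2 and 33, the highest of that gate in CD200 at 3456, 2961 and 2128, had 0, 0.42 and 0 CPM of Il34.

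As a rank correlation, Il34 and CD200 had a rho of -0.79 over 39 CD61+ cells, -0.83 and -0.77 on its plates. In CD61- cells it was -0.11, and -0.09 and -0.15 by plate. Within CD61+ cells rich in Cxcl12 it was -0.81 (23 cells). Il7 and CD200 had -0.57 in CD61+ and -0.24 in CD61- cells, Cxcl14 -0.43 and -0.08, and Csf1 -0.19 and -0.05. Total counts ran with Il34 at -0.44 in CD61+ cells and 0.36 in CD61- cells, and the part of depth in the relation to CD200 was not tested.

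**Figure D5:**
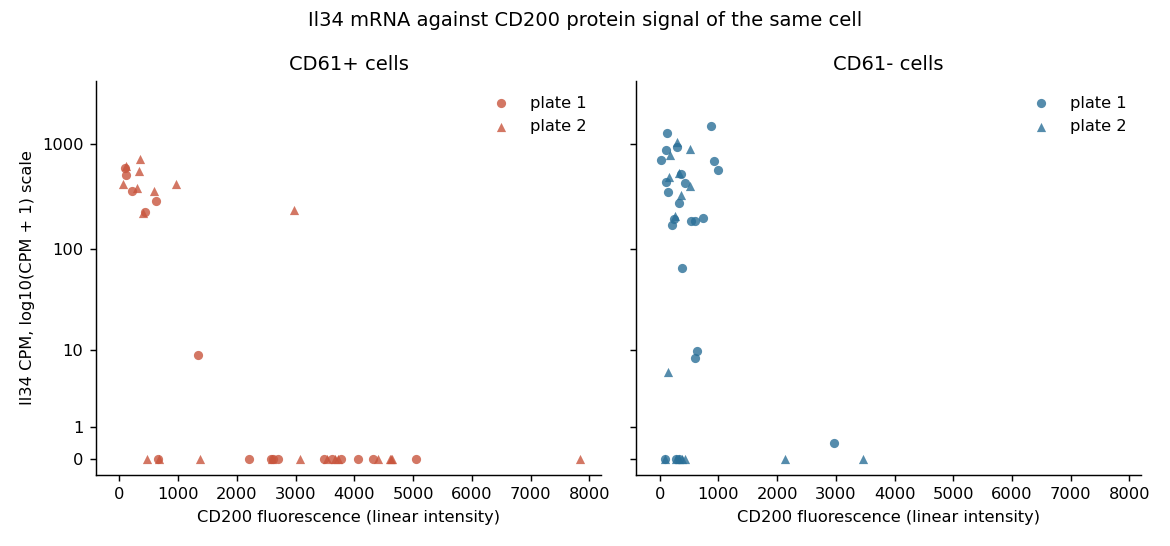
Il34 CPM (log10(CPM + 1) axis) against CD200 fluorescence (linear intensity) of the same cell in the CD61+ and CD61- gates, with a symbol for each plate. In CD61+ cells Il34 of 10 CPM or more is found at a median CD200 of 348.5, and cells under it have a median of 3533. In CD61- cells the medians are 337 (20 to 998) and 351.5 (89 to 3456).

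The genes most like each member over the 91 cells, by Spearman rho among 8003 genes with a count in at least 25% of cells, differed from member to member. For Il7 they were Pappa (0.61), a protease of IGF-binding proteins, then Abi3bp, Vcam1, Adipoq and Ptx3 (0.56). For Il34 they were Lpl (0.66), the lipoprotein lipase, then Svep1, Kitl, which encodes stem cell factor, Serping1 and the leptin receptor gene Lepr (0.63). For Cxcl14 they were Igfbp4 (0.75), Gas6, Cxcl12, Fbln5 and the MHC class I gene H2-D1 (0.64). For Csf1 the highest values were lower: Gdpd2 (0.57), Serpina3i, Serpina3g, the nucleoside transporter gene Slc29a1 and Fgf7 (0.51). Adipoq ranked 4 for Il7, 13 for Il34, 114 for Cxcl14 and 127 for Csf1, and Cxcl12 ranked 69, 10, 3 and 18.

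Other cytokines of the same roles were mostly lower in CD61+ cells as well. Of 11 lymphoid cytokines and adhesion genes tested, 7 were at least 2-fold lower in CD61+ cells and none at least 2-fold higher. Lower on both plates were 9 of the 11. Over all genes these shares were 17.3% lower by 2-fold and 17.8% lower on both plates. The 11 included Il7, Cxcl12, by which cells were divided above, and Vcam1, whose protein was used in the sort. Their median log2 ratio was -1.13, which is the value of Cxcl12 itself, beside 0.01 over all genes tested. Some were counted in few cells, such as Tslp in 9 CD61- cells and 1 CD61+ cell, and Il15 in 15 and 7. The summed level of the list reached 142721 CPM in 1 CD61- cell poor in Cxcl12, against a median of 31563 CPM in CD61- cells. Kitl was 651 CPM in CD61+ and 1924 CPM in CD61- cells, and the interleukin gene Il15 had a log2 ratio of -3.05, with 108 CPM in CD61- cells. Flt3l, whose product acts on early lymphoid and dendritic cell progenitors, was 38.5 and 34.4 CPM.

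Of the myeloid growth factors, Csf1, Il34, Kitl and Il11 could be tested, 2 of which (Il34 and Kitl) were at least 2-fold lower and 1 higher. The latter, Il11, was 2.32 against 0.38 CPM, reached 10 CPM in only 1 CD61+ cell and was not higher on both plates. Of 10 chemokines for monocytes and neutrophils, Cxcl14 included, 7 were at least 2-fold lower in CD61+ cells and 7 lower on both plates, with a median log2 ratio of -2.29, beside 17.3% and 17.8% of all genes. Several of these were counted in few cells, such as Cxcl10 in 4 CD61- cells and 1 CD61+ cell, and Ccl7 in 9 and 1. The summed level of the list reached 49194 CPM in 1 CD61- cell poor in Cxcl12, against a median of 2182 CPM in CD61- cells. Cx3cl1, which attracts monocytes, was 95.3 CPM in CD61+ and 336 CPM in CD61- cells and was counted in 49 of the 91 cells. The osteoclast factor Tnfsf11 (RANKL), which acts beside CSF1, was counted in 48 cells, at 62.1 CPM in CD61+ and 46.5 CPM in CD61- cells.

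The receptor genes Il7r and Csf1r were scarce in these cells, while other genes for receptors or binding partners of the members were counted more widely. Il7r was counted in 5 cells and Csf1r in 9, only 1 of which, VCAM1+ cell 7, had 10 CPM of Csf1r (16.6 CPM). Sdc1, which encodes a proteoglycan that can bind IL-34, was counted in 65 cells, at 84.3 CPM in CD61+ and 132 CPM in CD61- cells. Of 10 receptor and signalling genes tested, 2 were at least 2-fold higher in CD61+ cells (Il2rg, at 50.6 against 21.1 CPM, and Ptprz1, another IL-34 receptor, at 15.2 against 3.70 CPM) and none at least 2-fold lower. This is near the 19.4% of all genes at least 2-fold higher, and Ptprz1 was not higher on both plates. Il2rg was counted in 18 of the 91 cells and Ptprz1 in 20.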

How the data were processed

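Expected counts per gene and cell (estimated counts) were deposited by the authors, who per the submitters' processing notes used kallisto 0.43.0, R 3.5.1 and build mm10; the sources used here do not give the annotation. All values are whole, and they sum to the deposited reads in all 91 cells. Index-sort intensity values, linear, are as deposited by the authors; 40 columns of values per cell were not used. CPM is a count over the cell's total, and summed CPM a sum over cells over their summed total. Shares have Clopper-Pearson intervals and ratios the exact binomial split (95%). Genes entered comparisons with at least 10 counts on the 4 plates and a count in 5 cells, with a floor of 3 counts per gate. No cell was removed, no doublet caller was run and no cells were clustered. Genes named beside the members were the 5 most alike by rho (predicted, mitochondrial and ribosomal genes left out), listed cytokine and receptor genes counted in 25% of cells, and up to 4 of each other list; single cells, Il11, Cxcl10, Ccl7, Ptprz1, Il2rg, Il7r, Csf1r, Lyz2 and Laptm5 were named after their values were seen. Members and lists were chosen with earlier results of these data known. Steps were tested on simulated data. Alternatives were TMM (edgeR 4.0.16) and DESeq2 1.42.0 size factors (R 4.3.3), mean CPM, no filter, 4 counts or 10 CPM as a minimum, thresholds of 10 and 1000 CPM for Adipoq and Alpl, thinning to 500000 counts, Pearson r of log2(CPM + 1), partial ranks on depth and genes, and leaving out plates or cells. Python 3.11.15, pandas 2.3.3, numpy 2.4.6, scipy 1.17.1 and matplotlib 3.10.9 were used.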

Additional observations from a re-analysis of the deposited data

Results flagged for a closer look

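In the VCAM1+ gate of 9 cells, the highest cell stood apart from the next for 4 of the 7 genes looked at. In groups of normally spread values, chance marks about 1 in 20. These values are not so spread: only 3 of the 9 cells were rich in Cxcl12, most values were at or near 0, and cell 3 was marked for both Il7 and Il34. The rate for such values was not computed. Il7 was 568.4 CPM in cell 3, with 214.7 CPM in the next cell, and Il34 was 852 CPM in the same cell, with 271 CPM in the next. Csf1 was 1823 CPM in cell 8 and 652 CPM in the next. Alpl was 170 CPM in cell 5 and 0 in all others.

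The 3 cells whose title and gate label disagree entered no comparison of gates, and all 4 members were counted in each of them. Their CD61 intensities were 483, 221 and 901, beside 222 to 1573 in CD61- and 1567 to 3739 in CD61+ cells. They were not assigned to a gate. Cell 1 had 41.5 CPM of Il7, 144 of Csf1, 2075 of Il34 and 1344 of Cxcl14, and its Il34 was the highest of all 91 cells. Cell 2 had 98.5 CPM of Il7, 234 of Csf1, 1143 of Il34 and 327 of Cxcl14. Cell 3 had 3.81 CPM of Il7, 444 of Csf1, 127 of Il34 and 462 of Cxcl14.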

How the results depend on the processing

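No paired analysis was possible because no label names an animal or a batch shared by the gates. Of 340 alternative values for 74 results, 245 stayed within the spread between plates or the counting interval, 82 moved and 13 turned sign.

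Log2 ratios of CD61+ to CD61- (main values -1.02 for Il7, -0.28 for Csf1, -1.95 for Il34 and -0.40 for Cxcl14) were in that order -0.67, -0.43, -1.24 and -0.30 after thinning, and -0.71, -0.42, -1.24 and -0.30 with mean CPM. Without cells with Cdh5 or Laptm5 they were -0.87, -0.32, -1.80 and -0.26, and Cxcl14 was -0.42 with TMM. In cells rich in Cxcl12 only they were -0.12, -0.019, -1.12 and 0.44. Leaving out a plate gave -1.58 to -0.63 for Il7, -0.59 to 0.28 for Csf1, -2.68 to -1.45 for Il34 and -0.82 to -0.066 for Cxcl14. Leaving out a cell gave -1.21 to -0.90, -0.37 to -0.028, -2.19 to -1.82 and -0.62 to -0.29. Within the cells rich in Cxcl12 mean CPM gave -0.060, -0.29, -0.67 and 0.28. There, leaving out a plate gave -0.63 to 0.23 for Il7 (0.098 without CD61- plate 2), -0.32 to 0.57 for Csf1 (0.21 without CD61+ plate 1), -1.88 to -0.58 for Il34 and -0.036 to 0.83 for Cxcl14. Leaving out a cell gave -0.27 to 0.0067, -0.16 to 0.24, -1.31 to -0.99 and 0.25 to 0.54.

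Counting only cells at 10 CPM lowered the share with Il7 from 75.0 to 52.5% in CD61- cells, from 81.2 to 62.5% in cells rich in Cxcl12, from 18.5 to 3.70% in cells poor in it, from 82.5 to 65.0% with Adipoq only, from 43.5 to 21.7% with Alpl only and from 13.3 to 0% with neither, and the share with Il34 in cells poor in Cxcl12 from 14.8 to 3.70%. With 10 CPM as the Adipoq and Alpl threshold, Cxcl14 was counted in 100% of cells with Adipoq only and Il7 in 0% with neither. With 1000 CPM, Il7 was counted in 100% of cells with both genes, and Csf1 in 100% and Cxcl14 in 78.6% with Alpl only. In cells rich in Cxcl12 only, Csf1 and Cxcl14 were counted in 100% of cells with Alpl only and with neither, and Il7 and Il34 in 66.7% of cells with neither. Leaving out a plate gave 56.2 to 87.5% of CD61- cells with Il34 and 93.8 to 100% with Cxcl14. Spearman rank correlations turned sign without a plate for Il7 and Alpl (-0.17 to 0.069), Csf1 and Alpl (-0.038 to 0.25), Csf1 and CD200 (-0.20 to 0.074) and Cxcl14 and CD51 (-0.12 to 0.11). The cause of these shifts was not tested. The alternatives without cells with Cdh5 or Laptm5 and in cells rich in Cxcl12 only, all those within that range and those on stain intensities were chosen after seeing the data. Genes with few counts in a cell are limited by depth.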
